A study of Homo sapiens with 21 samples.

Results

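The genes described here are 10 targets of the transcription factor NRF2 and genes of glutathione defence: NQO1, GCLC, GCLM, SLC7A11, TXNRD1, SRXN1, HMOX1, AKR1C1, AKR1B10 and GPX4. They were taken by gene name from the 56632 genes of the count tables, which hold 11 entries with these 10 names because SRXN1 is listed under 2 identifiers. RNA-seq of 21 libraries from 5 human lung cell lines gave their levels, and every condition of a line is a single library. The lung cancer lines HCC827 and PC9, both with mutant EGFR and without T790M, were sequenced as parental cells, as gefitinib-tolerant cells made with 40 nM drug and as osimertinib-tolerant cells made with 20 nM drug, each for 14 days (n = 2 lines per group). AALE, an immortalized tracheobronchial epithelial line, and HCC827 and PC9 received lentivirus and puromycin, with miR-147b, miR-21 or a scrambled insert (n = 3 lines in each of these groups). H1975 and PC9ER, EGFR-mutant lines labelled positive for the T790M resistance mutation, had knockdown of miR-147b, knockdown of miR-21 or a control (n = 2 lines in each).

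Several features of the design bear on every value. The parental libraries carry VEH, read here as vehicle, and no drug in their labels. Tolerance and 14 days of drug therefore cannot be told apart. AALE was kept in another medium than the 4 cancer lines, so line and medium cannot be told apart either. The protocol also gives an organoid medium with the cysteine donor N-acetylcysteine, and the labels do not say which culture gave the RNA. The knockdown method was not named in the labels read. Nothing says that libraries of a line came from separate cultures, so a p-value reflects only the scatter of these samples, and that scatter may be technical.

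NRF2 is held at a low level by KEAP1, which marks it for degradation. Oxidants and electrophiles block KEAP1, and NRF2 then enters the nucleus, pairs with a small MAF protein and binds antioxidant response elements near its target genes. Those targets make and recycle glutathione and thioredoxin, reduce quinones and aldehydes, and break down haem. In lung cancer the pathway is known for activation by mutation of KEAP1 or NRF2 itself. SLC7A11 also answers to ATF4, the factor of the amino acid response, and GPX4 is the glutathione-dependent enzyme that removes lipid peroxides and blocks ferroptosis.

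The 2 miRNAs of the study are shown because their seeds decide which of the 10 transcripts could pair with them directly. Both mature sequences are from RefSeq on GRCh38.p14, the first at chr15:45433098-45433118 and the second at chr17:59841273-59841294, both on the plus strand. Capitals mark the seed, bases 2 to 8, which the miRNAs do not share.
hsa-miR-147b-3p: gUGUGCGGaaaugcuucugcu
hsa-miR-21-5p: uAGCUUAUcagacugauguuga
The seed match CCGCACA of miR-147b was found in 0 of the 10 annotated 3′ UTRs, and in 2.37% of 19104 3′ UTRs of all genes (plus strand of the transcript, GENCODE on GRCh38). The match ATAAGCT of miR-21 was found in 8.58% of those UTRs and in 1 of the 10, that of GCLM on chromosome 1, at base 1119 of the UTR. It is shown with its flanks, the match in capitals.
GCLM: attgcaaataaATAAGCTatgaactttga
A match is a description of the letters, and binding was not measured.

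Expected counts summed to 15516460 to 29694050 per library. Epithelial markers (EPCAM, CDH1, KRT8, KRT18, KRT19) were all 5 present in each line, at a summed 2160 CPM or more (CPM, counts scaled to a common library total). Airway basal markers summed to 1970 to 5390 CPM in AALE, 57 to 352 in PC9 and 39 to 103 in PC9ER. The sums were 1.89 to 19.1 CPM in HCC827 and 1.32 to 2.41 in H1975. The alveolar type 2 markers SFTPB, NAPSA and NKX2-1 reached 1 CPM in HCC827 and H1975 but not in PC9, PC9ER or AALE. SFTPC, the other alveolar type 2 marker listed, stayed under 1 CPM in every line. The MIR147B entry was detected in the 3 miR-147b overexpression libraries, with 526.1 expected counts in AALE, 386.2 in HCC827 and 61 in PC9, and was at 0 in the other 18. The MIR21 entry was under 1 count in all 21 libraries, so the miR-21 groups and both knockdowns were not checked at their target in these poly(A) libraries.

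Most called differences in these genes lay between cell lines. Levels are given as CPM of all expected counts, and comparisons as log2 fold changes with their standard error (SE) from edgeR's quasi-likelihood test. A gene is called where the Benjamini-Hochberg adjusted p over all genes is under 0.05. In the overexpression libraries, 8 of the 10 genes were lower in HCC827 than in PC9 and 1 was higher (n = 3 libraries per line, which differ in miRNA). Over all 18433 genes tested, 30.4% were called lower and 31.6% higher in the same comparison, 62% in all. AALE was lower than the mean of HCC827 and PC9 in 7 of the 10 and higher in 2, where 32% of all genes were called lower and 34.4% higher, 66.3% in all. H1975 was lower than PC9ER in 5 and higher in 1, where 24.8% of 17723 genes were called lower and 21.2% higher, 46.1% in all. The median of the 10 genes was -0.89 on the log2 scale in HCC827 against PC9, -1.40 in AALE against the mean of both and -0.95 in H1975 against PC9ER, and the medians of all genes were 0.04, 0.04 and 0.05.

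**Figure D1:**
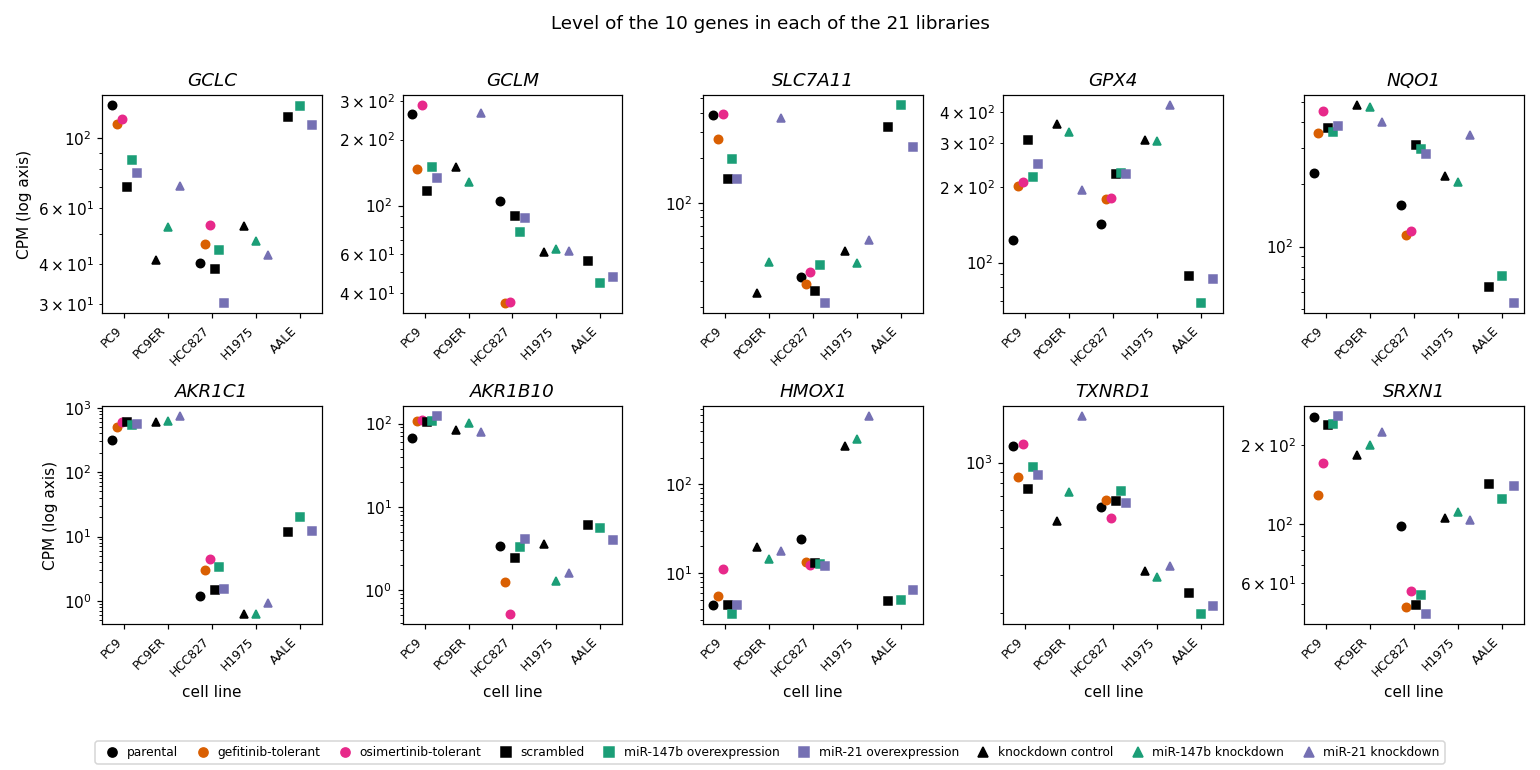
CPM (log axis) of each of the 10 genes in the 21 libraries, grouped by cell line, 1 point per library, with colour and shape for the group. The vertical range differs between panels. AKR1C1 and AKR1B10 separate PC9 and PC9ER from the other 3 lines, HMOX1 separates H1975, and SLC7A11 and TXNRD1 show 1 high PC9ER point, the miR-21 knockdown.

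The genes of glutathione synthesis were mostly high in PC9. GCLC, the catalytic subunit of glutamate-cysteine ligase, had 70.2 to 127 CPM in PC9 (median 98.0 of 6 libraries) and 110 to 127 in AALE. It had 30.1 to 53.0 CPM in HCC827 (median 42.3), 42.7 to 52.7 in H1975 and 41.4 to 70.7 in PC9ER. The ranges of PC9 and AALE overlap, as do those of HCC827, H1975 and PC9ER, and the highest PC9ER library, the miR-21 knockdown, meets the lowest of PC9. In edgeR GCLC was lower in HCC827 than in PC9 by a log2 fold change of -1.08 (SE 0.11, adjusted p 2.9e-05) and higher in AALE than in their mean by 0.92 (SE 0.10, adjusted p 1.66e-05).

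GCLM, the modifier subunit that lowers the enzyme's sensitivity to feedback by glutathione, did not follow GCLC across the lines. It had 117 to 288 CPM in PC9 (median 148) and 128 to 264 in PC9ER, against 35.8 to 105 in HCC827, 61.4 to 63.4 in H1975 and 44.3 to 55.9 in AALE. AALE, which had GCLC levels as high as PC9, was therefore among the lowest lines in GCLM. In edgeR GCLM was lower in AALE than in the mean of HCC827 and PC9 by -1.32 (SE 0.11, adjusted p 5.85e-06), and lower in H1975 than in PC9ER by -1.53 (SE 0.25, adjusted p 0.00583).

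SLC7A11, the cystine importer that supplies the cysteine of glutathione, had 237 to 452 CPM in AALE and 144 to 393 in PC9. The levels were 21.1 to 38.5 CPM in HCC827 and 39.7 to 56.3 in H1975. In PC9ER 2 libraries held 24.9 and 40.2 CPM and the miR-21 knockdown library 368. Its difference between HCC827 and PC9 was -2.57 (SE 0.13, adjusted p 2.58e-07 in edgeR), and AALE exceeded the mean of both by 2.09 (SE 0.11, adjusted p 1.41e-07), though its range overlaps that of PC9. H1975 and PC9ER did not differ by the test (-0.61, SE 0.60, adjusted p 0.475), and the value was 0.33 or 0.31 without a miR-21 knockdown library and, called, -1.36 or -1.37 without a control library (adjusted p 0.027 and 0.0316).

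GPX4 was lowest in AALE, at 68.7 to 88.7 CPM, against 123 to 308 in PC9, 142 to 228 in HCC827, 306 to 426 in H1975 and 195 to 358 in PC9ER. In edgeR AALE was lower than the mean of HCC827 and PC9 by -1.79 (SE 0.10, adjusted p 4.77e-07). The ranges of the 4 cancer lines overlap in part, and neither HCC827 against PC9 (-0.20, SE 0.11, adjusted p 0.146) nor H1975 against PC9ER (0.20, SE 0.35, adjusted p 0.683) was called.

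The aldo-keto reductases, which reduce ketosteroids, aldehydes and quinones, were close to an on and off pattern. AKR1C1 had 317 to 603 CPM in PC9 and 596 to 745 in PC9ER. It had 11.8 to 20.2 CPM in AALE, 1.17 to 4.55 in HCC827 and 0.616 to 0.924 in H1975, which is 9.56 to 19.2 expected counts. The ranges of AALE, HCC827 and H1975 do not overlap each other. The log2 fold change was -8.11 in HCC827 against PC9 (SE 0.27, adjusted p 3.45e-08) and -9.86 in H1975 against PC9ER (SE 0.26, adjusted p 0.000342 in edgeR). AKR1B10 had 66.6 to 124 CPM in PC9 and 79.4 to 101 in PC9ER, and 0.505 to 4.07, 1.26 to 3.61 and 4.002 to 6.09 CPM in HCC827, H1975 and AALE. The same edgeR contrasts gave -5.14 (SE 0.20, adjusted p 7.53e-08) and -5.51 (SE 0.37, adjusted p 0.000665).

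AKR1C1 has closely related copies, so how its reads were divided is uncertain. The same holds for AKR1B10 with its relatives AKR1B1 and AKR1B15. AKR1C2 had 300.2 to 516 CPM in the 6 PC9 libraries and 359 to 426 in PC9ER, 0.985 to 4.51 in HCC827 and 0.0754 to 0.231 in H1975. AKR1C3, the copy that makes prostaglandins and androgens, had 365 to 916 CPM in PC9 and 485 to 534 in PC9ER, 26.7 to 96.1 in HCC827 and 0.325 to 0.368 in H1975. All 3 AKR1C genes were thus high in PC9 and PC9ER and low in H1975. In AALE AKR1C2 had 23.5 to 26.2 CPM and AKR1C3 4.26 to 5.80.

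NQO1, the quinone reductase used as a readout of NRF2, had 226 to 453 CPM in PC9 (median 368), 400.5 to 485 in PC9ER, 113 to 310 in HCC827 (median 219) and 205 to 347 in H1975. It was lowest in AALE, at 53.1 to 71.7 CPM, a range that meets no other. In edgeR AALE was lower than the mean of HCC827 and PC9 by -2.61 (SE 0.11, adjusted p 1.39e-07). NQO1 in HCC827 against PC9 was -0.36 (SE 0.13, adjusted p 0.0325), and 5 of the 6 fits that left out an HCC827 or PC9 library lost that call (adjusted p 0.068 to 0.192). H1975 against PC9ER was -0.92 (SE 0.31, adjusted p 0.0545 in edgeR), and DESeq2 called it (adjusted p 0.0325).

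HMOX1, which breaks down haem, had another order of lines. It had 271 to 589 CPM in H1975, 14.6 to 19.9 in PC9ER, 12.2 to 24.4 in HCC827, 4.87 to 6.45 in AALE and 3.43 to 11.3 in PC9. H1975 lay above every other line, by 4.38 against PC9ER in edgeR (SE 0.33, adjusted p 0.000856). HCC827 was higher than PC9 by 1.61 (SE 0.18, adjusted p 4.63e-05), so HMOX1 was the 1 gene of the 10 called higher in both of these comparisons.

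TXNRD1, the reductase that recycles thioredoxin, had 755 to 1225 CPM in PC9, 536 to 1649 in PC9ER, 553 to 738 in HCC827, 294 to 329 in H1975 and 197 to 248 in AALE. AALE was lower than the mean of HCC827 and PC9 by -2.01 (SE 0.10, adjusted p 2.26e-07), and H1975 than PC9ER by -1.53 (SE 0.29, adjusted p 0.0101, both edgeR). Its smaller difference between HCC827 and PC9 (-0.36, SE 0.11, adjusted p 0.0176 in edgeR) lost the call without 4 of the 6 libraries of these lines, 1 at a time (adjusted p 0.0659 to 0.0953). SRXN1, which restores overoxidized peroxiredoxins, had 129 to 258 CPM in PC9, 183 to 224 in PC9ER, 125 to 142 in AALE, 103 to 111 in H1975 and 45.4 to 98.6 in HCC827, counting its main entry. HCC827 lay below all other lines, and its difference from PC9 was -2.33 (SE 0.10, adjusted p 1.12e-07 in edgeR). H1975 against PC9ER gave -0.98 (SE 0.20, adjusted p 0.0114 in edgeR), a call lost without either control or either miR-147b knockdown library (adjusted p 0.0873 to 0.234). AALE did not differ from the mean of HCC827 and PC9 in SRXN1 (0.09, SE 0.09, adjusted p 0.369), but with total counts as the scale the value was 0.30 and called (adjusted p 0.0143). That scale moved the median of all genes in this comparison from 0.04 to 0.25.

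The wider pathway was read from lists written from general knowledge. Of 22 other NRF2 targets, 16 were called lower and 1 higher in HCC827 than in PC9, 15 and 1 in H1975 against PC9ER, and 19 and 1 in AALE. The shares of all genes called lower and higher were 30.4% and 31.6%, 24.8% and 21.2%, and 32% and 34.4% in the same order. FTL, the ferritin light chain, was -1.82 in HCC827 against PC9 (SE 0.13, adjusted p 2.93e-06) and -3.74 in H1975 against PC9ER (SE 0.25, adjusted p 0.00062, both edgeR). Of the 10 regulators, 6, 5 and 3 were called lower in these comparisons, and in AALE 7 were called higher. KEAP1, the inhibitor of NRF2, was -1.56 in HCC827 against PC9, -1.51 in H1975 against PC9ER and -1.91 in AALE (edgeR adjusted p 1.17e-06, 0.00634 and 1.48e-07). NFE2L2, which encodes NRF2, was 1.06 higher in AALE (SE 0.09, adjusted p 5.15e-06 in edgeR).

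Other defence lists did not all share the direction of the 10 genes. Of 10 ATF4 response genes, 8 were called higher and 1 lower in AALE, among them TRIB3 (3.42, SE 0.10, adjusted p 6.39e-09), ATF3 (2.87, SE 0.17, adjusted p 3.54e-07) and the asparagine synthetase ASNS (2.49, SE 0.10, adjusted p 4.13e-08 in edgeR). The list's median in AALE was 1.53 on the log2 scale, beside 0.04 over all genes. In HCC827 against PC9 the ATF4 list had 3 genes called higher and 4 lower, with a median of 0.03 beside 0.04 over all genes. In H1975 against PC9ER it had 1 and 2, with a median of 0.25 beside 0.05. SLC7A11 and GCLC were the 2 genes of the 10 called higher in AALE, and SLC7A11 was -2.57 in HCC827 against PC9. Of 14 superoxide and peroxide enzymes, 7 were called higher and 4 lower in HCC827 against PC9, 3 and 8 in AALE, and 2 and 5 in H1975 against PC9ER. Of 20 genes of glutathione synthesis and use, the same counts were 3 and 9, 6 and 7, and 2 and 10. Of 12 lipid peroxide and ferroptosis genes, they were 2 and 9, 2 and 8, and 4 and 5. Over all genes, 31.6% were called higher and 30.4% lower in HCC827 against PC9, 34.4% and 32% in AALE, and 21.2% and 24.8% in H1975 against PC9ER. The 6 and 7 of 20 in AALE lie near those shares.

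Drug tolerance was compared with the parental library of each line. None of the 10 genes passed in edgeR for gefitinib (0 of 19837 genes called, 0% of all, with 3468 at an unadjusted p under 0.05) or osimertinib (0 called, 0%, with 3924). DESeq2 called 2 of the 10, SRXN1 and GCLM, for gefitinib, where it called 7.37% of 17072 genes. For osimertinib it called 1, SRXN1, against 9.59% of genes, and limma voom called 0 of all genes for either drug. For the mean of both drugs edgeR called 0 of the 10 and 0% of all genes (4655 at an unadjusted p under 0.05), limma voom called 0, and DESeq2 called SRXN1, GCLM and AKR1C1, and 14% of genes. In single pairs, the background past 2-fold was 12.5% higher and 6.81% lower with gefitinib in PC9, 14.6% and 8.58% with osimertinib in PC9, 18.2% and 16.5% with gefitinib in HCC827, and 18.3% and 16.1% with osimertinib in HCC827. Of the 10 genes, 0 were higher and 1 lower in the first pair, 1 and 0 in the second, 1 and 3 in each HCC827 pair. The higher ones were HMOX1 in PC9 with osimertinib and AKR1C1 in HCC827 with both drugs. The lower ones were SRXN1 in PC9 with gefitinib, and in HCC827 GCLM and AKR1B10 with both drugs, SRXN1 with gefitinib and HMOX1 with osimertinib. With total counts as the scale the counts in PC9 were 0 for gefitinib and 2 for osimertinib, HCC827 with osimertinib had 2 lower in place of 3, and that scale moved the median of all genes from 0.05 to 0.15 for gefitinib and from 0.04 to 0.21 for osimertinib. All 4 pairs use 2 parental libraries, so the values of both drugs share their control.

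SRXN1 was lower in all 4 tolerant libraries. It had 254 CPM in parental PC9, 129 with gefitinib and 171 with osimertinib, and 98.6, 48.7 and 56.0 CPM in HCC827. The tolerant levels of each line lay below its parental level. The fold change in edgeR was -1.10 for gefitinib (SE 0.22, p 0.00376, adjusted p 0.223), -0.87 for osimertinib (SE 0.22, p 0.0102, adjusted p 0.179) and -0.98 for the mean of both (SE 0.19, p 0.00273, adjusted p 0.115). DESeq2 gave adjusted p 0.00868, 0.0428 and 0.0032. The scrambled library of HCC827, with no drug in its label, was also low, at 49.5 CPM, and that of PC9 was at 237 CPM, near its parental level.

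GCLM was lower in HCC827 and, with gefitinib alone, in PC9. It had 105 CPM in parental HCC827, 35.8 with gefitinib and 36.5 with osimertinib. In PC9 the levels were 263 CPM, 146 and 288. The log2 ratios to the parental library, on libraries scaled by the trimmed mean of M values (TMM), were -1.61 and -1.67 in HCC827 and -0.99 and -0.06 in PC9. In edgeR gefitinib gave -1.35 (SE 0.41, p 0.0228, adjusted p 0.236) and osimertinib -0.85 (SE 0.41, adjusted p 0.332). The scrambled library of HCC827 had 89.3 CPM, closer to the parental level than to the tolerant ones, and that of PC9 had 117 CPM, below all 3 of its tolerance libraries.

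AKR1C1 was higher in all 4 tolerant libraries, from 317 CPM to 510 and 603 in PC9 and from 1.17 to 2.97 and 4.55 in HCC827. The HCC827 values rest on 26.6, 78.2 and 111 expected counts. In edgeR gefitinib gave 0.82 (SE 0.32, p 0.0496, adjusted p 0.285) and osimertinib 1.18 (SE 0.32, p 0.0137, adjusted p 0.183). AKR1C3 was higher as well, from 365 CPM to 724 and 916 in PC9 and from 26.7 to 89.7 and 96.1 in HCC827, by 1.26 (adjusted p 0.223 in edgeR) and 1.39 (adjusted p 0.171). The scrambled PC9 library had 597 CPM of AKR1C1, as high as the tolerant ones.

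The other genes of the 10 moved differently in the 2 lines or little in both. NQO1 went from 226 CPM to 355 and 453 in PC9 and from 159 to 113 and 118 in HCC827. The change in HCC827 less that in PC9 was -1.23 (SE 0.27, p 0.0057, adjusted p 0.0702 in edgeR), and DESeq2 called it (-1.18, adjusted p 0.00504). AKR1B10 went from 66.6 CPM to 107 and 111 in PC9 and from 3.40 to 1.26 and 0.505 in HCC827, which is 77.3, 33.1 and 12.3 expected counts. Its difference between lines was -2.58 (SE 0.60, adjusted p 0.0786 in edgeR, and 0.000316 in DESeq2). For this comparison edgeR called 0 of the 10 genes, with 4 at an unadjusted p under 0.05, and 3.9% of all genes (1.92% higher in HCC827 and 1.98% lower). Without any 1 of the 4 tolerant libraries it called 0 of all genes. DESeq2 called 2 of the 10, and 15.1% of genes, and limma voom called 0 of the 10.

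HMOX1 also differed in sign between the lines, at 4.37, 5.57 and 11.3 CPM in PC9 and 24.4, 13.3 and 12.3 in HCC827 for parental, gefitinib and osimertinib. The scrambled HCC827 library held 12.99 CPM, so the parental library of that line was the high one among its 6. GPX4 was higher in all 4 tolerant libraries, at 123, 201 and 209 CPM in PC9 and 142, 180 and 182 in HCC827 in the same order, with 0.40 for the mean of both drugs (SE 0.20, adjusted p 0.295 in edgeR). In scrambled libraries GPX4 was higher still, at 308 and 226 CPM. GCLC, SLC7A11 and TXNRD1 had log2 ratios from -0.67 to 0.25 in the 4 pairs. Osimertinib against gefitinib called 0 of the 10 genes in edgeR and 0 of all genes (198 at an unadjusted p under 0.05). DESeq2 and limma voom called 0 of the 10 there too.

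**Figure D2:**
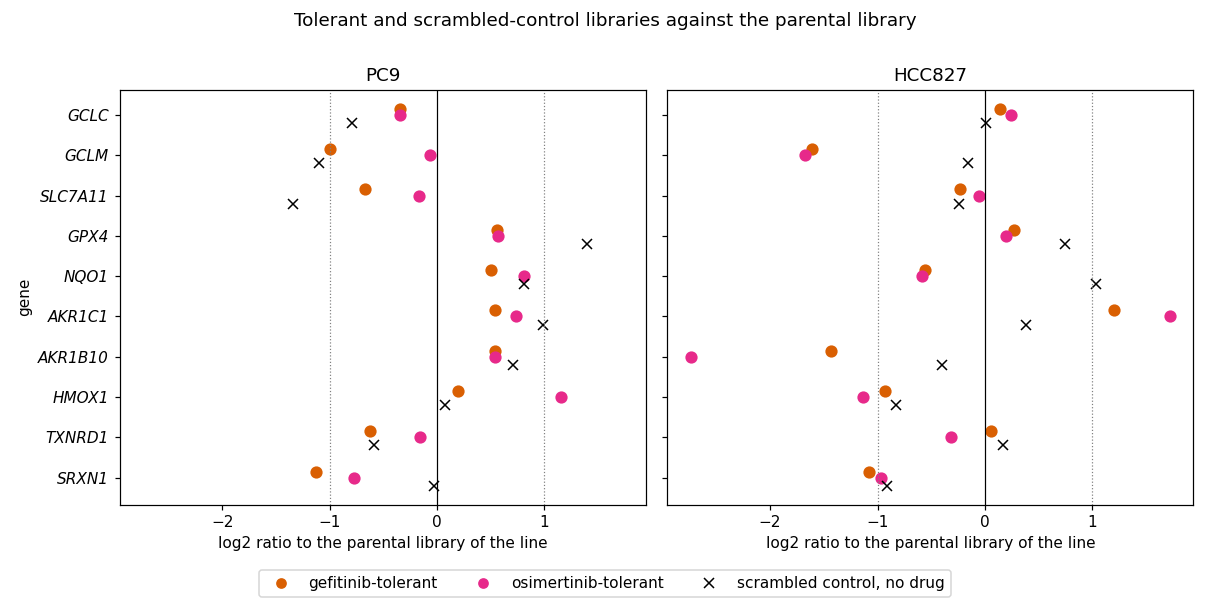
Log2 ratio to the parental library of the same line, 1 point per library, for gefitinib-tolerant, osimertinib-tolerant and scrambled-control libraries of PC9 and HCC827, with dotted lines at 2-fold. SRXN1 is left of 0 and AKR1C1 right of 0 in all 4 tolerant libraries, and several scrambled libraries lie as far from 0 as the tolerant ones.

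The calls depended on the PC9 parental library. Without it HCC827 alone had a parental library, and the PC9 tolerant libraries entered only through the difference between the drugs. Some of the 10 genes were then called in edgeR for each drug, as was a larger share of all genes. That fit rests on the HCC827 parental library alone, so its calls are not read as a result about the 10 genes. The effect sizes of the genes concerned were 1.36 for AKR1C1, -1.84 for GCLM and -1.14 for SRXN1 with gefitinib. With osimertinib they were 1.69 for AKR1C1, -0.90 for SRXN1 and -2.26 for AKR1B10. Without any other library of the set no gene of the 10 was called for either drug. Scrambled over parental, which no drug separates, passed 2-fold in 16.1% of genes in PC9 and 14.6% in HCC827. In PC9 those ratios were -1.34 for SLC7A11, -1.10 for GCLM, -0.79 for GCLC, 1.40 for GPX4, 0.99 for AKR1C1 and 0.81 for NQO1. In HCC827 they were 1.04 for NQO1, -0.92 for SRXN1, -0.83 for HMOX1 and 0.74 for GPX4. The scrambled and parental cells also differ in lentivirus and puromycin, and in the vehicle label of the parental cells. Whether the library or the handling set these ratios was not tested.

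Around the 10 genes, 0 of the listed genes were called for either drug in edgeR, and ATF3 and DDIT3 were among those with the smallest p. Their list, the ATF4 response, was 6 higher and 4 lower with gefitinib (median 0.01) and 4 higher and 6 lower with osimertinib (median -0.27), none of them called. ATF3, a stress-induced factor, had 2.00, 5.33 and 15.6 CPM in PC9 and 18.1, 372 and 267 in HCC827 for parental, gefitinib and osimertinib (2.97 and 3.19, adjusted p 0.228 and 0.176). DDIT3 gave 0.98 and 1.31 (adjusted p 0.228 and 0.171), the peroxidase GPX8 1.13 and 1.12 (0.223 and 0.17), and SESN3 2.12 and 2.24 (0.228 and 0.18). NFE2L2 gave 0.50 and 0.53 (0.368 and 0.317). Of the 22 other NRF2 targets 9 had a positive and 13 a negative value for each drug, with medians of -0.08 and -0.12, beside 0.05 and 0.04 over all genes.

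Between the lines, 6 genes of the lists differed in their response in edgeR, where 3.9% of all 19837 genes did. They were 1 of the 10 regulators, 3 of the 20 glutathione genes, 1 of the 12 lipid peroxide and ferroptosis genes and 1 of the 14 superoxide and peroxide enzymes. The other lists held 0. All calls of this comparison went without any 1 tolerant library. MAFK, a partner of NRF2, went from 38.3 CPM to 38.9 and 46.4 in PC9 and from 53.0 to 187 and 193 in HCC827 (difference 1.76, SE 0.23, adjusted p 0.0361). The iron exporter SLC40A1 went from 7.19 CPM to 20.4 and 31.2 in PC9 and from 0.352 to 29.4 and 55.3 in HCC827 (5.11, SE 0.86, adjusted p 0.0423). GPX1 went from 155 CPM to 246 and 227 in PC9 and from 336 to 180 and 191 in HCC827 (-1.40, SE 0.23, adjusted p 0.046). GLRX (-1.61, adjusted p 0.0447), MGST3 (-1.29, adjusted p 0.0476) and PRDX4 (-1.19, adjusted p 0.0486) differed in the same direction as GPX1.

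MiR-147b and miR-21 overexpression changed the 10 genes little. For miR-147b edgeR called 0 of the 10 genes, and 0.00543% of 18433 genes, which is 1 gene, MIR147B itself. For miR-21 it called 0 of the 10 genes and 0% of all. At an unadjusted p under 0.05 there were 828 and 171 genes, DESeq2 called 0 of the 10 in both (53 and 38 of all genes, 0.145% and 0.104%), and limma voom called 0 of the 10 in both (4 and 0 of all). Of 6 single pairs, 1 held a gene of the 10 past 2-fold, AKR1C1 in HCC827 with miR-147b, at 1.49 CPM in the control and 3.40 with the miRNA, or 31.0 and 101 expected counts. In that pair 2.35% of genes were 2-fold higher and 0.63% lower.

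SLC7A11 was higher with miR-147b in all 3 lines. It went from 323 CPM to 452 in AALE, from 25.6 to 38.5 in HCC827 and from 144 to 197 in PC9, which are log2 ratios of 0.61, 0.54 and 0.40. The miR-21 libraries held 237, 21.1 and 145 CPM, at or below the scrambled level. In edgeR miR-147b gave 0.52 (SE 0.12, p 0.00212, adjusted p 0.921) and miR-147b against miR-21 0.76 (SE 0.12, p 0.000156, adjusted p 0.602). DESeq2 called the second (0.75, adjusted p 0.000365) and 0.21% of all genes, where edgeR called 0 of the 10 genes and 0.00543% of all, with 668 at an unadjusted p under 0.05. Without the low-count filter edgeR called SLC7A11 in both (adjusted p 0.00904 and 5.43e-07), where it called 0.725% and 0.766% of 36676 genes. SLC7A11 has no seed match of miR-147b in its 3′ UTR, as given above. With knockdown of miR-147b SLC7A11 was also higher in PC9ER, from 24.9 CPM to 40.2 (log2 ratio 0.65). In H1975 it was lower, from 47.4 CPM to 39.7 (-0.22).

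The other genes were not called. GPX4 with miR-147b was 68.7 CPM against 88.7 in AALE, 228 against 226 in HCC827 and 219 against 308 in PC9 (-0.28, SE 0.11, p 0.0369, adjusted p 0.921 in edgeR). AKR1C1 was 0.89 in AALE, 1.10 in HCC827 and -0.23 in PC9, so the direction was not shared. AKR1B10 was -0.58 in AALE, 0.72 in HCC827 and 0.24 in PC9 with miR-21, and -0.03, 0.38 and 0.00 with miR-147b. NQO1, GCLC, GCLM, TXNRD1, SRXN1 and HMOX1 had log2 ratios from -0.41 to 0.41 over both miRNAs and the 3 lines. GCLM, the 1 gene of the 10 with a miR-21 seed match, gave -0.03 with miR-21 (SE 0.13, adjusted p 1 in edgeR). In the lists 0 genes were called, and the nearest included SAT1 (0.49, p 0.00155), SOD2 (0.42, p 0.00928) and BACH1, a repressor of NRF2 targets (0.29, p 0.0205), each with adjusted p 0.921 for miR-147b.

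**Figure D3:**
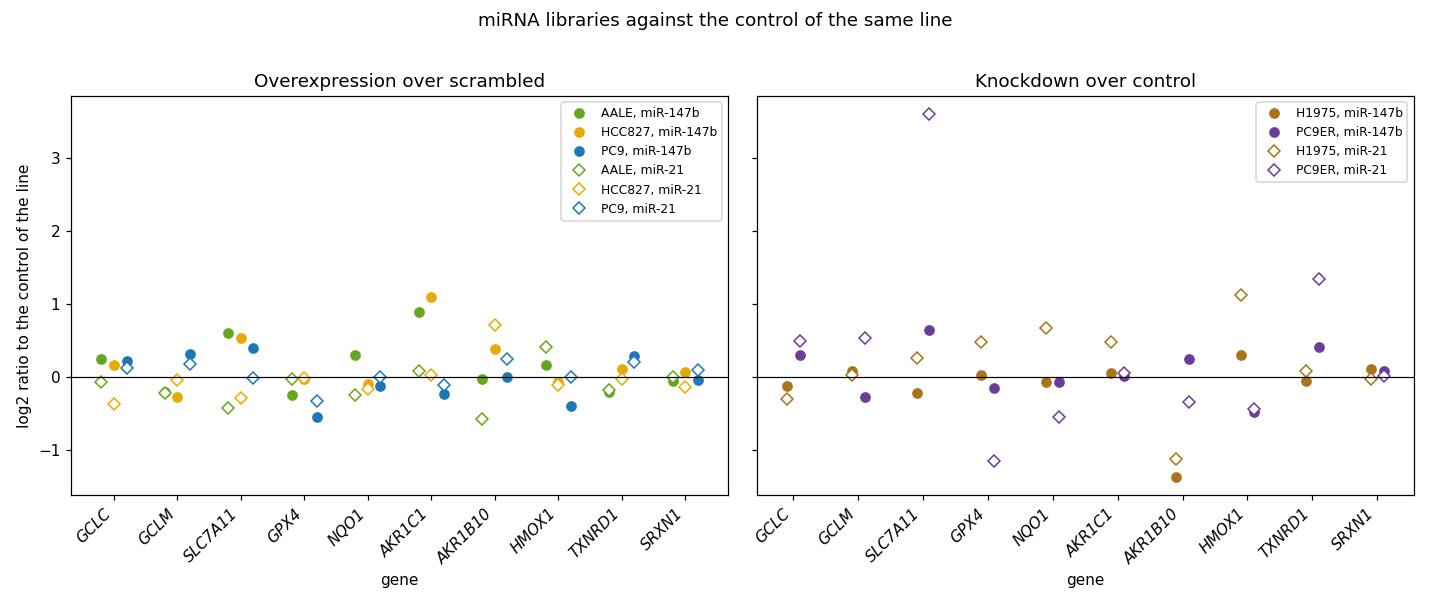
Log2 ratio of each miRNA library to the control library of its line for the 10 genes, with overexpression on the left and knockdown on the right. Filled circles are miR-147b and open diamonds miR-21, coloured by line. Most points lie within 1 of 0, SLC7A11 with miR-147b is above 0 in AALE, HCC827 and PC9, and the PC9ER miR-21 knockdown stands apart in SLC7A11, TXNRD1 and GPX4.

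Knockdown of the miRNAs gave 0 calls among the 10 genes in edgeR, in DESeq2 and in limma voom. EdgeR called 0% of 17723 genes for miR-147b and for miR-21, with 146 and 357 at an unadjusted p under 0.05, and DESeq2 called 26 and 38 genes, 0.0837% and 0.15%. In single pairs of H1975, 1.12% of genes were 2-fold higher and 1.98% lower with miR-147b knockdown, and 1.61% and 1.85% with miR-21 knockdown. Of the 10 genes, AKR1B10 was lower in both, at 3.61 CPM against 1.26 and 1.58, and HMOX1 higher with miR-21 knockdown, at 271 CPM against 589. In PC9ER 3.33% of genes were 2-fold higher and 1.99% lower with miR-147b knockdown, and 0 of the 10 genes were.

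The PC9ER library with miR-21 knockdown stood apart. In it 22.3% of genes were 2-fold higher than in the control and 7.54% lower, against at most 3.33% in either direction in the other 9 miRNA pairs. SLC7A11 had 24.9 CPM in the PC9ER control, 40.2 with miR-147b knockdown and 368 with miR-21 knockdown, a log2 ratio of 3.61 for the last. TXNRD1 had 536, 731 and 1649 CPM (1.35) and GPX4 358, 331 and 195 (-1.15). These were the 3 of the 10 past 2-fold, and with total counts as the scale GPX4 was not. In H1975 the same knockdown gave 0.25, 0.08 and 0.47 for these genes. Over both lines SLC7A11 was 2.10 in edgeR (SE 0.73, p 0.0442, adjusted p 0.833), TXNRD1 0.73 (SE 0.36, adjusted p 0.833) and GPX4 -0.28 (SE 0.43, adjusted p 0.86). Without the H1975 miR-21 library 4 of the 10 were called, SLC7A11 (3.37), TXNRD1 (1.23) and GCLM (0.62) higher and GPX4 (-1.11) lower. That fit, in which the knockdown is the PC9ER library alone, called 30.1% of all genes. Without the H1975 control 1 was called, SLC7A11 (3.12), where 4.49% of all genes were, and without any other library of the set 0 were.

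Transcript length moved with these ratios. Over genes, the log2 ratio of the PC9ER miR-21 knockdown correlated with log2 transcript length at r = 0.36 (12848 genes of 1 pair of libraries, which are not independent replicates). Of these genes, all protein-coding, those 2-fold higher had a median length of 3641 bases and those 2-fold lower 1856, beside 2548 for all of them. Genes longer than 2322 bases took 45.6% of protein-coding counts in the PC9ER control, 47.6% with miR-147b knockdown and 53% with miR-21 knockdown. The share of the control, which both PC9ER pairs use, was the lowest of all libraries, and the highest was 56.3%. SLC7A11, at 9645 bases, is longer than 98.3% of protein-coding genes, and GPX4, at 866 bases, than 8.67%. Centred on the 500 genes nearest in length, SLC7A11 was 2.61, TXNRD1 1.32 and GPX4 -0.59 in the miR-21 knockdown library, and GCLC and GCLM 0.43 and 0.47. For miR-147b knockdown in PC9ER, against the same control, r was 0.31, and centring moved SLC7A11 from 0.65 to 0.31. That centring was added after the data were seen, and lengths are medians over GENCODE transcripts on GRCh38, not the authors' annotation.

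Length also moved with the ratio in 1 of the 2 pairs of control libraries, in the opposite direction. For HCC827 scrambled over parental r was -0.04. For PC9 scrambled over parental r was -0.36. Genes longer than 2322 bases took 55.2% of protein-coding counts in the parental library and 47.3% in the scrambled one. Centring by length moved SLC7A11 in that pair from -1.34 to -0.99, GPX4 from 1.40 to 0.87 and NQO1 from 0.81 to 0.35. For the miR-147b overexpression pairs it left SLC7A11 at 0.39 in AALE, 0.58 in HCC827 and 0.36 in PC9. In the 4 tolerant pairs r lay between -0.09 and 0.12, and SRXN1 was -1.10 and -0.75 in PC9 and -1.10 and -1.03 in HCC827 after centring. In HCC827, with gefitinib and osimertinib, centring moved GPX4 from 0.27 and 0.20 to 0.60 and 0.55, NQO1 from -0.56 and -0.58 to -0.32 and -0.32, and SLC7A11 from -0.23 and -0.06 to -0.45 and -0.21. What part length has in these ratios was not tested further.

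**Figure D4:**
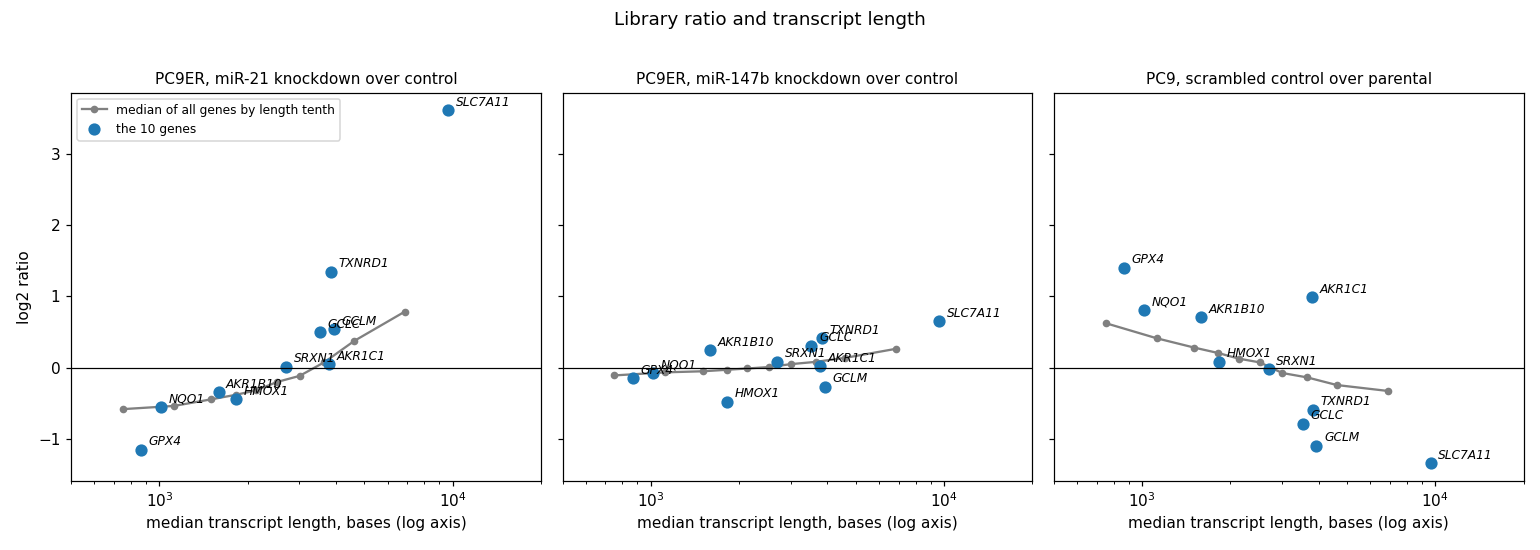
Log2 ratio against median transcript length in bases (log axis) for 3 pairs of libraries. The grey line is the median of all protein-coding genes in each of 10 length bins, and blue points are the 10 genes. The grey line rises from -0.58 to 0.79 in the PC9ER miR-21 knockdown and runs from 0.62 to -0.33 in PC9 scrambled over parental. SLC7A11 lies above the line on the left and below it on the right.

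The 10 genes did not vary as 1 group within lines. After centring log2 CPM within each line, over 21 libraries that share lines and controls, SLC7A11 correlated with TXNRD1 at r = 0.88 and with GCLC at 0.76. GPX4 ran opposite to GCLC (-0.75) and to SLC7A11 (-0.67). NQO1 correlated with AKR1B10 at 0.63 and with GCLC at -0.48. The r of SRXN1 with the other genes of the 10 ran from -0.31 (AKR1C1 and NQO1) to 0.19 (GCLM). Of 12818 genes ranked by the same measure, those most like SLC7A11 were NCKAP1 (0.970), FAM135A (0.961) and UBA6 (0.953), and for TXNRD1 they were DSG2 (0.961), INTS8 (0.952) and CCSAP (0.950). For NQO1 they were XRCC1 (0.928), SULT1A1 (0.897) and FBF1 (0.889), and for GPX4 MYL6B (0.922), ST6GALNAC6 (0.913) and FKBP8 (0.908). These correlations describe the libraries, 1 of which, the PC9ER miR-21 knockdown, lies far out for SLC7A11, TXNRD1 and GPX4.

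The antioxidant response element was looked for in RefSeq promoter windows on GRCh38.p14, 250 bases before to 50 after each start, since several of the 10 genes were low together in a line. The motif searched was TGACNNNGC, or GCNNNGTCA on the other strand. Windows were found for 7 of the 10 genes, 10 windows in all. GCLM held 1 match in 1 window and TXNRD1 3 in 2 windows, and the windows of GCLC, AKR1C1, NQO1, GPX4 and SRXN1 held 0. Of all 35116 windows 13.3% held a match. The matches are shown in capitals with their flanks, at chr1:93909446-93909474 on the minus strand, and at chr12:104215670-104215698, chr12:104215761-104215789 and chr12:104286920-104286948 on the plus strand. Offsets count from the annotated start.
GCLM: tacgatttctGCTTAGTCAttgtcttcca
TXNRD1 at offset -99: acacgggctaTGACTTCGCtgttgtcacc
TXNRD1 at offset -8: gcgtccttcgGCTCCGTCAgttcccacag
TXNRD1 at offset -102: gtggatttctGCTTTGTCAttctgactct
A match describes these letters alone, and 0 matches say only that they are not in the window.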

How the data were processed

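The libraries were poly(A) mRNA, prepared with a TruSeq kit per the labels. The authors deposited 3 tables of expected counts per gene, estimated counts from RSEM on Bowtie2 alignments to GRCh37 per the submitters' processing notes. Tool versions and the annotation were not stated there. Values were rounded, since 64.3% of those above 0 were not whole. A deposited sequencing summary holds counts of reads, signal (yield) and the percent of bases at quality 30. The tables held 85.39% to 91.17% of its reads, 0 columns were unmapped, and 0 libraries were identical.

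Genes were tested in edgeR 4.0.16 (R 4.3.3, limma 3.58.1) with TMM, filterByExpr, cell line as a block and adjustment over all genes, apart for the 6 tolerance, 9 overexpression and 6 knockdown libraries. All 10 genes passed the filter in each. DESeq2 1.42.0, limma voom, other scalings, no filter, no block and leaving out each library were the alternatives. Single pairs used a prior count of 2 and genes reaching 1 CPM in either library, and 2-fold is their size limit. The labels' cell line pairs the libraries. With group means removed, same-line libraries correlated at 0.706 to 0.93. The scripts were tested on simulated data.

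The 10 genes and the lists were chosen with earlier results of these data known. By rule, all 10 are named, and from each list per comparison up to 4 genes that pass with the largest change, or 2 with the smallest p, of which some are printed. SRXN1 is its more abundant entry, and the other held at most 11.3% of the sum. Intervals are not given, and depth limits AKR1C1 and AKR1B10 in HCC827 and H1975.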

Additional observations from a re-analysis of the deposited data

Results flagged for a closer look

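The minor SRXN1 entry passed a test of the difference between lines in the response to tolerance (adjusted p 0.0481 in edgeR). It rests on 1 library at 0, parental HCC827, beside 3.05 and 5.22 CPM in the tolerant libraries of that line and 29.9, 10.2 and 3.38 CPM in PC9, so no fold change is given. Of the 10 genes, 4 moved in opposite directions in the tolerant libraries of PC9 and of HCC827. The change in HCC827 less that in PC9 was -2.58 for AKR1B10, -1.79 for HMOX1, -1.23 for NQO1 and 0.54 for GCLC, and none of these passed in edgeR (adjusted p 0.0786, 0.146, 0.0702 and 0.174). The 2 tolerant libraries of a line share 1 parental library.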

How the results depend on the processing

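Of 1780 recomputed values of the 10 genes, 1716 kept their side of the threshold, 1591 of them with the same sign and 125 with a sign change where the value lay within 1 SE of 0. Of the rest 13 lost a call, 35 gained one and 16 changed the sign of a larger value. The cause was not tested except where fewer samples or genes entered. Counts of the 10 genes called moved with DESeq2 to 2 for gefitinib, 1 for osimertinib, 3 for the mean of both drugs, 2 for tolerance by cell line and 1 for miR-147b against miR-21. With no filter on low counts they were 1 for miR-147b overexpression and 2 for miR-147b against miR-21, where 0.725% and 0.766% of all genes were called. Leaving out each library gave 0 to 3 for gefitinib, 0 to 3 for osimertinib, 0 to 4 for their mean, 0 to 4 for miR-21 knockdown, 7 to 9 for HCC827 against PC9 and 5 to 7 for H1975 against PC9ER. The share of all genes called moved as well, from 51.8% to 63.7% for HCC827 against PC9 and 24.1% to 65.4% for H1975 against PC9ER. In both, the lowest and highest shares came with the lowest and highest counts. Where the tolerance and miR-21 knockdown counts were above 0, more of all genes were called too, in fits with 1 library in a group. With total counts, 0 genes were past 2-fold with gefitinib in PC9 and 2 with osimertinib. With no replicate block, that is without the line pairing, 0 genes were called in the tolerance, overexpression and knockdown contrasts, and AKR1B10 turned to 0.48 for osimertinib, 0.48 for the mean of both drugs and 0.20 for miR-147b knockdown, AKR1C1 to -0.20 for miR-147b overexpression and -0.09 for miR-147b against miR-21, and NQO1 to 0.00 for the latter. With limma voom AKR1B10 was 0.05 for the mean of both drugs. Leaving out each library, AKR1B10 ran from -2.48 to 0.36 for osimertinib (0.02 without that HCC827 library), -2.07 to 0.54 for the mean and -1.25 to 0.07 for miR-147b knockdown (0.03 without that H1975 library), GCLM from -0.23 to 1.08 for osimertinib against gefitinib, NQO1 from -0.01 to 0.27 for miR-147b against miR-21, and SLC7A11 from -1.37 to 0.33 for H1975 against PC9ER (0.31 without the PC9ER miR-21 library). Summing both SRXN1 entries, added after the data were seen, changed no count of calls.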
